A study of Mus musculus with 576 samples.

Results

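The cells described here are mesenchymal cells of the mouse embryonic pancreas selected on 2 genes of vessel-wall cells, Acta2 and Rgs5. They were chosen by measured values: a cell entered the gate with Epcam and Upk3b under 20 CPM (a gene's count over all counts of the cell, times 1000000), Vim at 100 CPM or more and Top2a under 50 CPM, and was taken when Acta2 or Rgs5 reached 50 CPM. Of 576 cells in the deposited tables, 549 passed the depth filter, 258 entered the gate and 220 were taken (85.3%, 95% exact binomial interval 80.3–89.4). The comparison cells were the 29 gated cells with both genes under 5 CPM, called reference cells below, and 9 cells fell between the limits. A working name of mural-like cells goes with this rule. The data went against that name, because the rule took most of the gated mesenchyme and the smooth muscle genes Myh11, Cnn1 and Lmod1 were at 0 in nearly all of these cells, while pericyte genes such as Pdgfrb were common in the reference cells too, so they are called Rgs5/Acta2 cells here.

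All cells came from the dorsal pancreas at embryonic day 12.5 and were sorted for green fluorescence into 96-well plates for Smart-seq2, a full-length single-cell RNA-seq protocol without molecular identifiers. In Nkx2.5-Cre;mTmG and Nkx3.2-Cre;mTmG embryos (the Nkx2.5 and Nkx3.2 lines, whose cells are called Nkx2.5 and Nkx3.2 cells below), Cre recombinase turns the mTmG reporter from red to green where the driver gene has been active, and daughter cells stay green, so the sort takes a lineage. In Prox1-GFP embryos (the Prox1 line) a transgene makes GFP under Prox1 control, so the sort takes cells with current or recent reporter activity, epithelium included. Every line was on a C57BL/6J background with both sexes mixed, was spread over 2 plates, and is 1 sample here, since the labels name no embryo or litter. Cells of 1 line are not replicates, so no test was made between lines or groups, and all intervals cover counting error only.

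Mural cells wrap the endothelium: pericytes sit on capillaries, and vascular smooth muscle cells on larger vessels. Smooth muscle is known for a contractile set that includes smooth muscle actin (Acta2), transgelin (Tagln), calponin (Cnn1) and smooth muscle myosin heavy chain (Myh11). Pericytes are known for the PDGF receptor Pdgfrb, the proteoglycan NG2 (Cspg4), the G-protein regulator Rgs5 and the potassium channel subunits Kcnj8 and Abcc9. Contractile genes are commonly controlled by serum response factor with its coactivator myocardin through a short DNA element, the CArG box.

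The promoters of 3 genes on which the results turn are shown with that element. Acta2 and Rgs5 chose the cells, and Myl9, the regulatory light chain of smooth muscle myosin, was a contractile gene higher in cells that also held Acta2. Each is the 300-base window of RefSeq on GRCm38.p6, from 250 bases before the start of the gene to 50 after it, read 5′ to 3′ on the strand of the gene. Capitals mark matches to the CArG box, which is CC and GG around a middle of A or T bases. At most 1 base of the middle could be off, and CC and GG had to be exact. The counts of matches below keep this rule, and the box reads the same on both strands. The windows are chr19:34255324-34255623 on the minus strand for Acta2, chr1:169655251-169655550 on the plus strand for Rgs5, and chr2:156775214-156775513 on the plus strand for Myl9.
Acta2: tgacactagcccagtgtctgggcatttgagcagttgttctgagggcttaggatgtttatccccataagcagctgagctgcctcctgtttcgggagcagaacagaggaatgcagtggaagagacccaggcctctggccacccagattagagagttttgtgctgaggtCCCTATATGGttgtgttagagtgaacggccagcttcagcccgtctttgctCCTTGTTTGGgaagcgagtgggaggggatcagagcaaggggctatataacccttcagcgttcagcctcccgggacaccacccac
Rgs5: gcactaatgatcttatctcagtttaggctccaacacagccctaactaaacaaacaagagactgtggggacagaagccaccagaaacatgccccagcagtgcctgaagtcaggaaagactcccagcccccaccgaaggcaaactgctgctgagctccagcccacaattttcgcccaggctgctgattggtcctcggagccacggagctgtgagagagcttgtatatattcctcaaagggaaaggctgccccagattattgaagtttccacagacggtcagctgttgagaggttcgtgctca
Myl9: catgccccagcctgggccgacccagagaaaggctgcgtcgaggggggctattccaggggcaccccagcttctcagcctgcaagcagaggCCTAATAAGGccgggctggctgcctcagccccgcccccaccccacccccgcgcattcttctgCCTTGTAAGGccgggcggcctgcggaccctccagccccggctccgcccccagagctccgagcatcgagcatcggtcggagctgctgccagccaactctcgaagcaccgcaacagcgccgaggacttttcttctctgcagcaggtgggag
The Acta2 window held 2 matches with 1 base off, starting 84 and 34 bases before the start. The Myl9 window held an exact match and, 99 bases before the start, a match with 1 base off. No match lay in the Rgs5 window. Of 32851 such windows in the table, 1.63% held an exact match and 9.98% a match with up to 1 base off. Of 27025 genes with a window, 1.81% held an exact match and 11.3% a match with up to 1 base off. Among 16 contractile genes with a window, 2 held an exact match (Myl9 and Vcl). With up to 1 base off, 3 of the 16 held a match (18.8%). None of 11 pericyte genes held a match of either kind. A match is a description of letters and not a site of binding.

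Rgs5 was broad in the gated mesenchyme and set the size of the group. At 50 CPM or more it was found in 214 of 258 gated cells (82.9%, 77.8–87.3), and Acta2 in 29 (11.2%, 7.66–15.7). In the Nkx2.5 line 94 gated cells were taken and 10 were not (90.4% taken, 83.03–95.3). The Nkx3.2 line gave 93 cells taken and 16 not (85.3%, 77.3–91.4), and the Prox1 line 33 of 45 (73.3%, 58.1–85.4). The share was lowest in Prox1 cells, and its interval overlapped those of the other lines. By plate the share was 88.1% and 93.3% for Nkx2.5 cells, 86.2% and 84.3% for Nkx3.2 cells, and 68.2% and 78.3% for Prox1 cells. Line, sort and plate cannot be told apart, since each plate held 1 line.

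**Figure D1:**
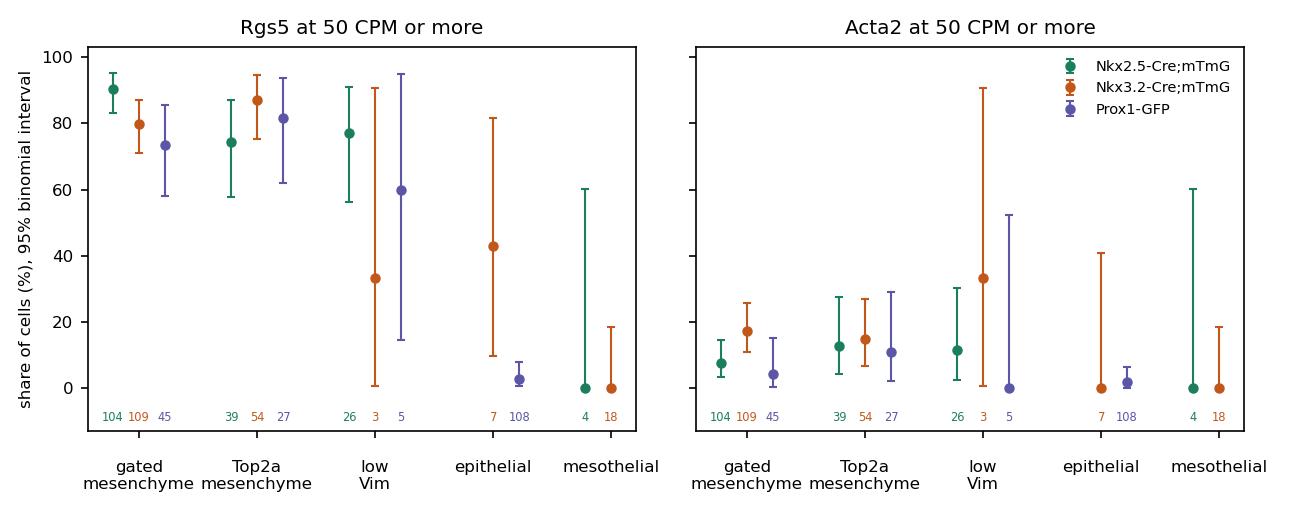
Share of cells, in percent, with Rgs5 (left) or Acta2 (right) at 50 CPM or more in each cell class, by line. Bars are exact binomial 95% intervals and the small numbers are cells. The low Vim class holds cells under 100 CPM of Vim that met the Epcam and Upk3b limits. Rgs5 is at 73.3% or more in the gated and Top2a mesenchyme of each line, and Acta2 is at 17.4% or less there.

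The summed level of Rgs5, its counts in the gated cells of a line over all counts of these cells, was 532 CPM in Nkx2.5 cells (95% exact Poisson interval 528–536), 359 CPM in Nkx3.2 cells (355–362) and 356 CPM in Prox1 cells (349–362). Within the selected cells the median per cell was 454, 313 and 354 CPM in that order, and the highest cell held 1732, 1336 and 2580 CPM. The Nkx2.5 cells were highest, and the other lines had summed levels with overlapping intervals. Acta2 had a median of 0 in the selected cells of each line. Its summed level in the gated cells was 18.6 CPM in Nkx2.5 cells, 103.02 CPM in Nkx3.2 cells and 150 CPM in Prox1 cells. Single cells set the higher of these values: 1 cell held 72.95% of the Acta2 counts of the selected Nkx3.2 cells, and among the Prox1 cells at 50 CPM or more 1 held 96.1% of their Acta2 counts. At the threshold, the 5 selected cells nearest to it held 59.1, 85.1, 85.6, 91.4 and 93.3 CPM of Rgs5, and the nearest cells left out held 49.6, 45.7, 43.9, 42.9 and 37.6 CPM, all 10 with Acta2 at 0.

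**Figure D2:**
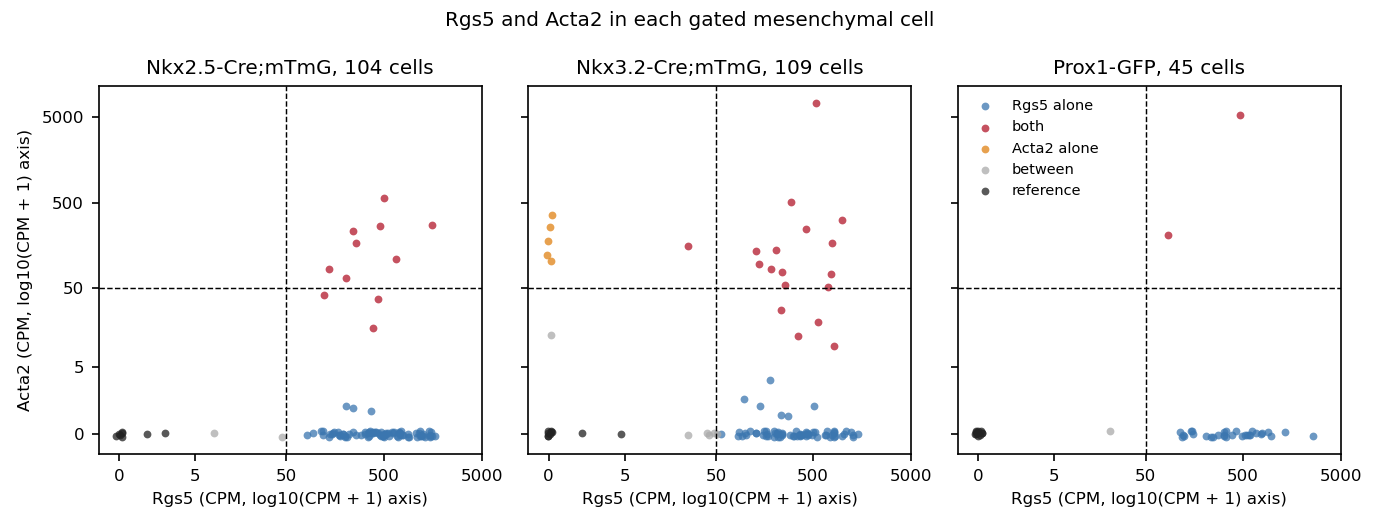
Rgs5 against Acta2 in CPM, 1 point per gated mesenchymal cell and 1 panel per line, on log10(CPM + 1) axes with a small random shift of points. Broken lines mark 50 CPM, and these values chose the cells. Most selected cells lie along the Rgs5 axis with Acta2 at 0, and 1 Nkx3.2 cell and 1 Prox1 cell lie far above the others for Acta2, at 7194 and 4965 CPM.

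Rgs5 was also common in mesenchymal cells that the gate left out. Of 120 cells that met the other limits but held Top2a, a DNA topoisomerase of dividing cells, at 50 CPM or more, 81.7% (73.6–88.1) reached 50 CPM of Rgs5 and 13.3% (7.82–20.7) of Acta2. Of the epithelial cells, defined by Epcam, 6 reached 50 CPM of Rgs5 (5.22%, 1.94–11.01) and 2 reached 50 CPM of Acta2 (1.74%, 0.211–6.14). All of 22 mesothelial cells, defined by Upk3b, were under 50 CPM of both genes, and none had a count of Rgs5 (0 of 22, which allows a share of up to 13.6%). The median depth of these classes was 920622 counts for the gated cells, 937501 for the Top2a cells, 824793 for the epithelial cells and 934290 for the mesothelial cells. Of 7 epithelial cells in the Nkx3.2 line, 3 reached 50 CPM of Rgs5 (42.9%, 9.90–81.6). Rgs5 was thus high through the mesenchyme and low or absent in most epithelial and mesothelial cells.

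The 220 cells fell into 3 kinds by the genes that chose them. Both genes at 5 CPM or more were held by 31 cells, Acta2 with Rgs5 under 5 CPM by 5, and Rgs5 with Acta2 under 5 CPM by all others. Among Nkx2.5, Nkx3.2 and Prox1 cells 83, 70 and 31 held Rgs5 alone, and 11, 18 and 2 held both. All 5 cells with Acta2 alone were of the Nkx3.2 line. Acta2 at 50 CPM or more was held by 17.4% (10.8–25.9) of the gated Nkx3.2 cells, by 7.69% (3.38–14.6) of the Nkx2.5 cells and by 4.44% (0.543–15.1) of the Prox1 cells. These intervals overlap.

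Several genes of mature mural cells were rare in the selected cells, and others were common. Myh11 had counts in 3 of 220 cells, and 1 of them held 92.6% of those counts. Cnn1 and Lmod1, a smooth muscle leiomodin, also had counts in 3 cells each, and Actg2, the enteric smooth muscle actin, in 12. Among pericyte genes, Higd1b was at 0 in all 220 cells, which allows a share of up to 1.36%, Vtn had counts in 1 cell and Ndufa4l2 in 7. Heyl, a target of Notch signalling, had counts in 18 cells, the melanoma cell adhesion molecule Mcam in 34, and Myocd, which encodes myocardin, in 16. Art3 had counts in 11 cells and never exceeded 2.29 CPM. Pdgfrb, by contrast, reached 20 CPM in 46 of 83 Nkx2.5 cells, 63 of 70 Nkx3.2 cells and 24 of 31 Prox1 cells with Rgs5 alone, and in 15 of 29 reference cells. Abcc9 did so in 36, 38 and 15 of these cells and Kcnj8 in 26, 30 and 14, against 18 and 16 of the 29 reference cells.

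The more common markers were present in both groups, and their ratios differed between genes and lines. Pdgfrb in the selected cells was 133.5 CPM in Nkx2.5 cells, 288 CPM in Nkx3.2 cells and 196 CPM in Prox1 cells, against 98.4, 230 and 106.5 CPM in the reference cells of those lines, which is 1.36, 1.25 and 1.84 times as high. Des, the intermediate filament desmin, was 103.9 against 41.7 CPM, 294 against 194 CPM and 127.4 against 51.3 CPM, at least 2-fold higher in Nkx2.5 and Prox1 cells. Abcc9 was 121.1 against 238 CPM, 168.01 against 167.2 CPM and 120.8 against 123.7 CPM, so that it was lower or level in the selected cells. Kcnj8, its channel partner, was 151.9 against 256 CPM, 205 against 413 CPM and 114.4 against 300 CPM, lower in all 3 lines. It passed 2-fold in Nkx3.2 and Prox1 cells, but 1 reference cell held 66.9% of the Nkx3.2 reference counts, and without it the ratio turned to 0.37 on the log2 scale.

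Cspg4 and Tagln were higher in the selected cells, on few cells. Cspg4 was 28.5 against 1.62 CPM in Nkx2.5 cells, 25.8 against 1.77 CPM in Nkx3.2 cells and 14.1 against 13.5 CPM in Prox1 cells, so the groups were about level in the last line. It had counts in 14 of 94, 30 of 93 and 4 of 33 selected cells. Tagln was 6.08 CPM in Nkx2.5 cells, where all 8 reference cells were at 0. Against a floor of 3 counts over the group the ratio was 17.6. Tagln reached 20 CPM in 2 of 11 Nkx2.5 cells with both genes and in 5 of 83 with Rgs5 alone. With so few, 8 reference cells at 0 set no firm minimum for the fold. Tagln was 30.3 against 9.23 CPM in Nkx3.2 cells and 50.6 against 4.6003 CPM in Prox1 cells, where 1 selected cell held 78.7% of the counts. Tagln overlaps Pcsk7 in the annotation (GRCm38, chr9:45929619-45936058, minus strand), and Smart-seq2 keeps no strand, so reads of the shared stretch cannot be told apart.

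Between selected and reference cells, no gene of the mural lists above the limit on low values was called, and several under it were higher in each line. Genes were compared with a mean of both sides of at least 10 CPM in every line, and called when at least 2-fold apart in the same direction in all 3 lines. Of 8083 genes compared, 0.903% were called higher and 0.458% lower. In single lines the shares higher and lower were 24% and 15.9% in Nkx2.5 cells, 12.1% and 13% in Nkx3.2 cells, and 14.8% and 14.5% in Prox1 cells. None of 10 contractile genes, 8 pericyte genes, 7 regulators of mural fate or 11 genes of mural signalling that could be compared was called in either direction. At the shares called over all genes, the absence of calls says little about lists of this size. Without that limit, when 4.66% of all genes were higher and 2.86% lower, Tagln, Synpo2, Actg2, Heyl, Foxs1, Ebf1, Pdgfa and S1pr1 were at least 2-fold higher in all 3 lines and no gene of these lists was lower. Foxs1 and S1pr1 were at 0 in the reference cells of every line and under 5 CPM in the selected cells, so their ratios were taken against the floor of 3 counts. The contractile genes had a median log2 ratio of 0.19, 0.50 and 0.23 in Nkx2.5, Nkx3.2 and Prox1 cells, and the pericyte genes of 0.50, −0.14 and 0.06, against 0.10, 0.02 and 0.04 for all genes compared.

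**Figure D3:**
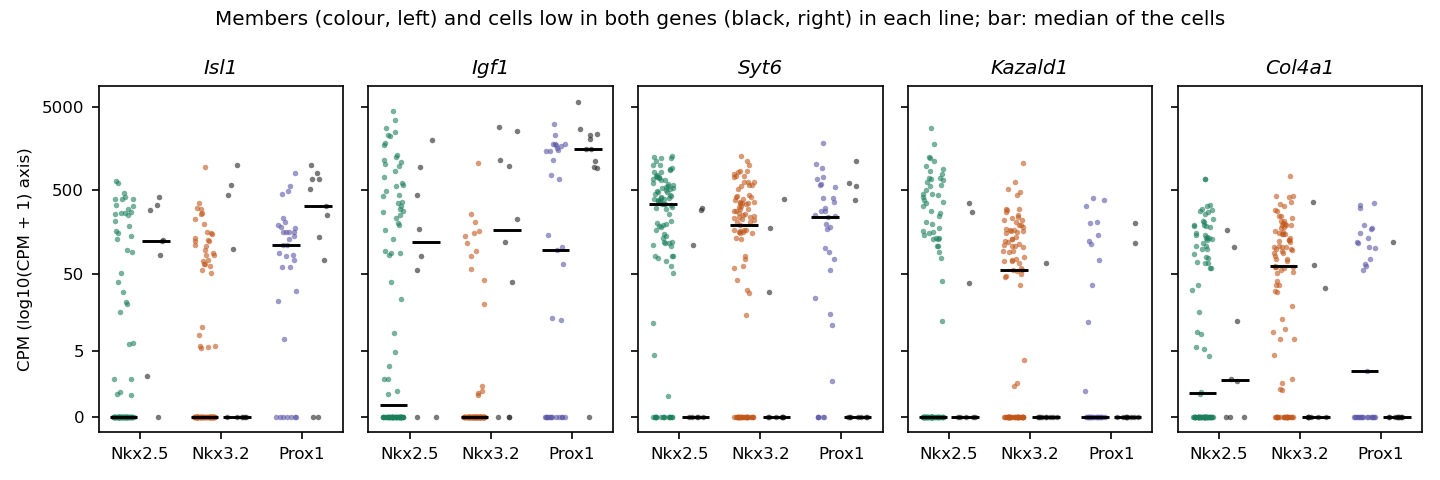
Level per cell in CPM, on a log10(CPM + 1) axis, of 5 genes in the selected cells (colour) and the reference cells (black) of each line. Each point is 1 cell, shifted sideways at random, and bars are medians over cells. Values range widely within both groups and many cells are at 0. For Syt6, 28 of 33 selected Prox1 cells have counts against 4 of 11 reference cells.

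Matrix and mesenchyme class genes held the list members that did pass. Col4a1, a chain of basement membrane collagen IV, was 75.9 against 36.02 CPM in Nkx2.5 cells, 105.9 against 52.6 CPM in Nkx3.2 cells and 83.7 against 6.97 CPM in Prox1 cells, and was the only call among 18 basement membrane and elastic matrix genes compared. Over all genes compared, 0.903% were called higher and 0.458% lower. The ratios of Col4a1 in the first lines were just past the limit, at 2.11 and 2.01. In Nkx3.2 cells its log2 ratio was 4.03 on the first plate and 0.03 on the second. The call ended with 20 CPM as the limit for selected cells (log2 ratio 0.96 in Nkx3.2 cells), with Rgs5 alone choosing them (0.98), with reference cells at 0 counts of both genes (0.82 in Nkx3.2 cells), without the highest selected cell of each line (0.94 in Nkx2.5 cells and 0.90 in Nkx3.2 cells), without selected cells holding markers of other cell types (0.76 and 0.77), and on the first plates alone (0.55 in Nkx2.5 cells). The partner chain Col4a2 was 1.47, 3.05 and 2.02 times as high in the selected cells. Biglycan (Bgn), a small matrix proteoglycan, was 3.56, 1.84 and 2.28 times as high.

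Isl1, a homeobox transcription factor of the pancreatic mesenchyme class lists, was lower in the selected cells of each line. It was 77.1 against 177.3 CPM in Nkx2.5 cells, 52.5 against 201 CPM in Nkx3.2 cells and 147.8 against 382 CPM in Prox1 cells, but its log2 ratio was 0.27 on the second Prox1 plate. Of 15 class genes compared, 2 were called, both lower, and Isl1 was among them. Over all genes compared, 0.903% were called higher and 0.458% lower. Without selected cells holding markers of other cell types, no class gene was called, with Isl1 at a log2 ratio of −0.92 in Nkx3.2 cells. Its call also ended on the first plates alone (−0.75 in Nkx2.5 cells), and without the highest reference cell of each line (−0.92 in Nkx2.5 cells and −0.96 in Nkx3.2 cells) or the reference cell with mesothelial markers (−0.92 in Nkx2.5 cells).

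Of the same class lists, Igf1, Syt6 and Kazald1 kept their direction over the 3 lines with plates summed, but missed 2-fold in 1 of them. On the second Prox1 plate the log2 ratio was −0.41 for Syt6 and 0.10 for Kazald1, against 2.71 and 6.14 on the first. Igf1, insulin-like growth factor 1, was 24.95 against 683 CPM in Nkx3.2 cells and 663 against 1908 CPM in Prox1 cells, but 356 against 447 CPM in Nkx2.5 cells. Syt6, a synaptotagmin, was 361 against 90.8 CPM in Nkx2.5 cells and 267 against 70.7 CPM in Nkx3.2 cells, and 338 against 271 CPM in Prox1 cells. Kazald1, a secreted matrix protein, was 241 against 82.9 CPM, 105.8 against 7.84 CPM and 66.04 against 34.8 CPM, so that it missed 2-fold in Prox1 cells. Of the regulator list, Tcf21, a transcription factor of visceral mesenchyme, was 0.765, 0.621 and 0.487 times as high in the selected cells as in the reference cells.

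Outside the lists, 10 genes were named for the highest ratio in their weakest line. Rcor1, a corepressor subunit, was 27.2 against 1.27 CPM, 34.9 against 5.19 CPM and 33.4 against 1.97 CPM in Nkx2.5, Nkx3.2 and Prox1 cells. Twistnb, a subunit of RNA polymerase I, was 83.5 against 7.73 CPM, 80.2 against 12.4 CPM and 82.7 against 21.7 CPM. Dr1, a general repressor of transcription, was 47.5 CPM in Nkx2.5 cells with all reference cells at 0, and 48.5 against 10.1 CPM and 63.4 against 9.86 CPM. The others of these 10 genes were Zfp91, Gfpt2, Slc36a4, Zfp367, Cchcr1, Zbtb14 and Frk, with ratios of at least 4.23 in their weakest line. Each of the 10 had counts in 2 or fewer of 8 Nkx2.5 reference cells, so their reference levels rest on few cells.

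Among the genes lowest in the selected cells was Arhgap29, a GTPase activating protein, at 18.4 against 124.2 CPM, 22.5 against 101.8 CPM and 39.5 against 132.8 CPM. One Nkx2.5 reference cell held 96.3% of its counts there, and without that cell the log2 ratio was 1.81. Crispld2, a secreted protein, was 20.5 against 60.6 CPM, 71.3 against 181.98 CPM and 66.7 against 192.4 CPM. Cd82, a tetraspanin, was 27.7 against 96.0 CPM, 26.6 against 64.6 CPM and 13.98 against 62.4 CPM. Zfp874a, Fam162b, Dclre1a, Rilpl2, Ofd1 and Myrf were further genes of the 10 lowest, with ratios of 0.311 to 0.418 in their weakest line. The selected cells had a median of 940629 counts and 6540 genes above 0, the reference cells 858722 counts and 5937 genes, and the part of this difference in the calls was not tested.

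**Figure D4:**
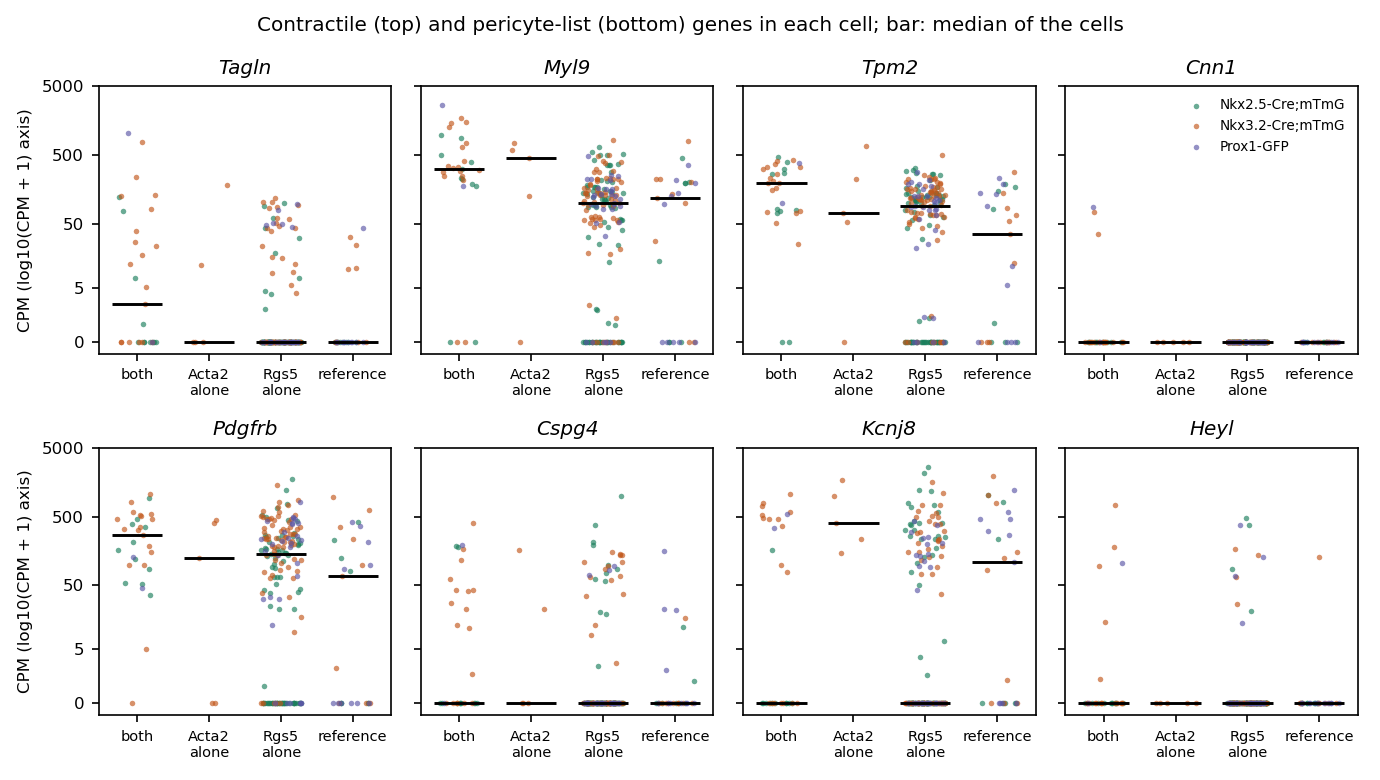
Level per cell in CPM, on a log10(CPM + 1) axis, of 4 contractile genes (top) and 4 pericyte genes (bottom) by kind of cell, with the lines in colour. Each point is 1 cell, shifted sideways at random, and bars are medians over cells. Myl9 and Tagln are higher in cells with both genes than in cells with Rgs5 alone, with overlapping ranges, and Cnn1 is at 0 in all but 3 of these cells.

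Within the selected cells, part of the contractile list was higher where Acta2 was present. The summed level of 19 contractile genes without Acta2 had a median per cell of 2162 CPM in the 11 Nkx2.5 cells with both genes and 1663 CPM in the 83 with Rgs5 alone. In the Nkx3.2 line it was 3363 CPM in 18 cells with both, 3299 CPM in the 5 with Acta2 alone, 2147 CPM in 70 with Rgs5 alone and 1954 CPM in the 10 reference cells. The reference cells were not below the cells with Rgs5 alone in the other lines, at 1782 CPM in Nkx2.5 cells and at 1700.2 against 1612 CPM in Prox1 cells. The ranges of cells with both and with Rgs5 alone overlapped in both lines, from 1723 to 4234 against 292 to 4491 CPM and from 1583 to 8101 against 974.6 to 4285 CPM. These sums are not corrected for gene length, so long transcripts weigh more in them.

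Tagln and Myl9 were more than 2-fold higher in cells with both genes than in cells with Rgs5 alone, in both lines with enough cells. These lines held 11 Nkx2.5 and 18 Nkx3.2 cells with both genes, and the 2 Prox1 cells with both were left out. Myl9 was 360 CPM (350–371) against 118.5 CPM (116.2–120.8) in Nkx2.5 cells, and 563 CPM (552–575) against 145.1 CPM (142.1–148.1) in Nkx3.2 cells. Tagln was 19.5 against 4.22 CPM and 85.5 against 15.4 CPM in these lines. On the first plates alone Tagln was not called, at a log2 ratio of 0.90 in Nkx2.5 cells and 2.89 in Nkx3.2 cells, and Myl9 was, at 1.51 and 1.66. Counts of Myl9 were seen in 9 of 11 and 16 of 18 cells with both, against 56 of 83 and 62 of 70 cells with Rgs5 alone.

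Across all genes this comparison called 0.664% of 8733 genes higher and 1.36% lower in both lines. In single lines, 11.1% were higher and 14.8% lower in Nkx2.5 cells, and 5.41% higher and 6.05% lower in Nkx3.2 cells. Of 13 contractile genes compared, 3 were called higher, Tagln and Myl9 among them, and none lower, and 10 and 11 of them had ratios above 1. Their median log2 ratio was 1.35 in Nkx2.5 cells and 0.82 in Nkx3.2 cells, against −0.01 and −0.03 for all genes compared. The tropomyosin Tpm2 was 2.55 and 1.77 times as high in cells with both, the LIM protein Csrp1 3.85 and 1.86 times, and filamin A (Flna), an actin crosslinker, 1.55 and 1.58 times. Desmin went the other way, at 57.4 against 110 CPM for Des in Nkx2.5 cells and 255 against 315 CPM in Nkx3.2 cells.

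**Figure D5:**
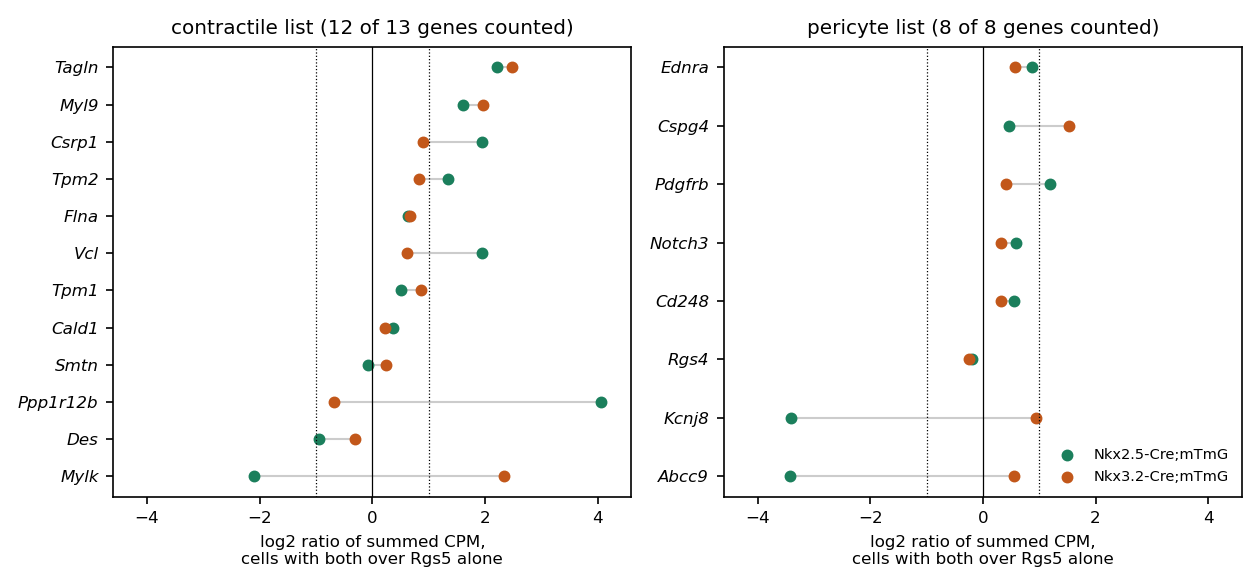
Log2 ratio of summed levels, cells with both genes over cells with Rgs5 alone, for 12 of the 13 contractile genes and the 8 pericyte genes compared, with 1 point for each of the Nkx2.5 and Nkx3.2 lines. Dotted lines mark a 2-fold difference. Tagln and Myl9 lie past 2-fold in both lines, and Kcnj8 and Abcc9 lie on opposite sides of 0.

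The single cells with most counts set part of this result. Without the cell with most Acta2 of each line, Myl9 and Tagln stayed past 2-fold in both lines, at log2 ratios of 1.36 and 1.80 for Myl9 and 1.25 and 1.38 for Tagln, where the full groups gave 1.60 and 1.96 and 2.21 and 2.47. Tagln then fell under the limit of 10 CPM in Nkx2.5 cells and was no longer counted as called. Leaving out, gene by gene, the cell with both genes that held most of that gene gave the same values for Tagln, and Myl9 was then the 1 contractile gene called of 10 compared. One cell held 53.04% and 56.01% of the Tagln counts of the cells with both in the 2 lines, and 27.3% and 15.8% of those of Myl9. Cells with both genes had a median of 983909 counts and 7297 genes above 0, against 936133 counts and 6462.5 genes with Rgs5 alone, and the part of depth in the ratios was not tested.

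No pericyte gene of 8 compared was called between these kinds of cells. Over all genes 0.664% were called higher and 1.36% lower, so none among 8 says little. The median log2 ratio of the 8 pericyte genes was 0.51 in Nkx2.5 cells and 0.48 in Nkx3.2 cells. For all genes compared it was −0.01 and −0.03. Pdgfrb was 265 against 115.3 CPM and 366 against 274 CPM, and Cspg4 was 37.6 against 27.2 CPM and 50.7 against 17.6 CPM. Notch3, a receptor that acts in vascular smooth muscle, was 75.7 against 50.1 CPM and 95.6 against 76.5 CPM. Kcnj8 was 16.1 CPM in 11 cells with both against 170.8 CPM with Rgs5 alone in Nkx2.5 cells, and 291 against 150.9 CPM in Nkx3.2 cells. Abcc9 had the same opposite signs, at 12.7 against 136.1 CPM and 227 against 154.8 CPM. The difference between lines was not tested, and a single cell held all Kcnj8 counts of the 11.

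None of the other lists had a called gene in this comparison, with 8 regulators, 12 signalling genes, 19 matrix genes, 14 mesenchyme class genes and 9 cell cycle genes compared. Over all genes 0.664% were called higher and 1.36% lower, so the absence of calls says little about lists of this size. Outside the lists, Hist1h2bc, a histone, was 40.9 against 11.2 CPM in Nkx2.5 cells and 114.97 against 19.95 CPM in Nkx3.2 cells. Nefl, the light neurofilament chain, was 110 against 13.7 CPM and 185.1 against 51.3 CPM. Egr1, an immediate early transcription factor, was 81.2 against 29.6 CPM and 230 against 19.3 CPM, with 73.97% of the latter in 1 cell. Ppp1r3b, Pcdh7, Prss35, Ctu1, Pole and Ehd4 were the remaining genes of the 10 highest, at ratios of 2.498 to 3.12 in their weaker line.

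Lower in the cells with both was first of all Pdgfc, a ligand of the PDGF receptor alpha, at 1.19 against 52.8 CPM in Nkx2.5 cells and 2.75 against 35.1 CPM in Nkx3.2 cells. It had counts in 1 of 11 and 3 of 18 cells with both, against 26 of 83 and 38 of 70 cells with Rgs5 alone. Gemin2 and Gemin4, subunits of the SMN complex that assembles spliceosomal particles, were 1.34 against 47.8 CPM and 6.93 against 27.5 CPM, and 2.80 against 46.5 CPM and 13.95 against 69.8 CPM. Etv1, an ETS transcription factor, was 7.13 against 52.7 CPM and 10.9 against 36.4 CPM. Zfp141, Wnk4, Wwp2, Lzts1, Tecpr1 and Ubxn8 completed the 10 lowest, with ratios of 0.269 to 0.334 in their weaker line.

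Of the 29 cells with Acta2 at 50 CPM or more, most were low and 2 stood far above. Their median was 161.9 CPM, 23 also held Rgs5 at 50 CPM or more, and 5 had none. Counts of Tagln were seen in 17 of them, of Pdgfrb in 26, of Cspg4 in 14, of Cnn1 in 3 and of Myh11 in 1. Pdgfrb was common in these cells, and Cnn1 and Myh11 were rare.

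The cell with most Acta2 came from the Nkx3.2 line, with 7194 CPM of Acta2, 576 CPM of Rgs5, 782 CPM of Tagln and 1450 CPM of Myl9. It had Cspg4 at 401 CPM, Heyl at 736 CPM, Notch3 at 251 CPM and Myocd at 95.7 CPM, and Myh11 at 0. At least 5 CPM was reached by 15 of 19 contractile genes without Acta2 and 11 of 17 pericyte genes without Rgs5. Among the 220 cells it ranked 1 by the summed level of the pericyte genes and 2 by that of the contractile genes. It thus held many genes of both lists.

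The other cell came from the Prox1 line and held 4965 CPM of Acta2, 508 CPM of Rgs5, 1046 CPM of Tagln and 2662 CPM of Myl9. Myh11 was 267 CPM, Actg2 521 CPM and Cnn1 87.4 CPM, and 13 of the 19 contractile genes reached 5 CPM. It ranked 1 by the contractile sum and 80 by the pericyte sum. A Prox1 cell left out of the gate for its Top2a (832 CPM) resembled it, with 7637 CPM of Acta2, 3243 CPM of Myl9, 813 CPM of Actg2 and 143.5 CPM of Myh11. In all 3 cells Cdh5, which encodes the endothelial cadherin, was at 0 and Pecam1 between 17.3 and 25.4 CPM.

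All selected cells held counts of the endothelial list, while sums over the neural crest, immune and erythroid lists had a median of 0 over all lines. The part of these markers of other cell types in the results was not tested. In the selected cells 8 of 10 endothelial genes had counts, with Cdh5 and Cldn5 at 0, and the sum over the list ran from 14.6 to 489 CPM against 19.9 to 326 CPM in the reference cells. Of neural crest and neuronal genes 7 of 10 had counts (sums of 0 to 259 CPM against 0 to 185.3 CPM), with Foxd3 and Ret among those at 0. Of immune genes 6 of 10 had counts (0 to 576 against 0 to 440 CPM), with Tyrobp, Fcer1g, C1qb and Cd52 at 0. Of erythroid genes 7 of 8 had counts (0 to 572 against 0 to 186.7 CPM). At least 5 CPM of 2 or more genes of 1 of these lists was held by 110 of 220 selected cells and 12 of 29 reference cells, and 95 of the 110 by the endothelial list. Without these selected cells, 42 of the 73 genes called higher and 20 of the 37 called lower against the reference cells were called again. No gene of these 4 lists was called in either comparison, nor of the epithelial, mesothelial or cell cycle lists. Few genes outside the last list could be compared. Against the reference cells, 2 endothelial, 1 epithelial, 1 mesothelial and 6 cell cycle genes were compared, and 0 neural crest, immune or erythroid genes. Between the kinds of cells they were 2 endothelial, 1 immune, 1 mesothelial and 9 cell cycle genes. The 6 cell cycle genes had a median log2 ratio of −0.49, 1.13 and −0.03 in Nkx2.5, Nkx3.2 and Prox1 cells. All 6 were higher in Nkx3.2 cells, and the part of this was not tested.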

How the data were processed

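Single cells sorted for GFP from the pancreas of 3 mouse lines were sequenced by Smart-seq2, with 192 cells per line in 2 plates, and the Prox1 table holds 1 cell fewer than the study describes. Per the submitters' processing notes, reads were trimmed with Trim Galore 0.6.5 and assigned with kallisto on GRCm38 (mm10), and the study summed transcripts to genes. The deposited values are estimated counts per gene that the authors made in this way, and 36.0% of values above 0 are not whole (tolerance 1e-06). Without molecular identifiers, PCR copies of a molecule count as reads of their own. Of 36658 gene identifiers, 35866 had a symbol in GENCODE M21, and counts of the others stayed in the totals. No columns of any sample were left unused.

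Cells with at least 1000 genes above 0 and 100000 counts were kept (549, 27 left out), and CPM is the count over the column sum times 1000000, not corrected for length. The kept mesenchymal cells had 236624 to 1512740 counts. No doublet caller was run, and 0 pairs of columns were identical. Counts were summed over the cells of a group and line. Levels carry exact Poisson and shares exact binomial 95% intervals, and with 1 sample per line no test was made. Genes were compared with a mean of both sides of at least 10 CPM, in lines with at least 5 cells on both sides, and called at 2-fold. A floor of 3 counts stood for a group at 0. Acta2, Rgs5, Epcam, Upk3b, Vim and Top2a chose the cells and were left out of all counts of calls.

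The members and the 13 gene lists, with 185 genes, were chosen with earlier results of these data known. Symbols of 4 listed genes matched no table entry: Gucy1a3, Gucy1b3, Mkl1 and Mkl2. Named genes were the 5 given markers, the members of each list with the largest ratios, and the 10 genes with the largest and the 10 with the smallest ratio nearest 1 over the lines, among called genes at 20 CPM or more and, after thinning to 100000 counts, held by at least 20% of cells on the higher side. A few named or listed genes are not reported here. Rare mural genes, genes of the cells with most Acta2 and other list genes with values in the text were added after their values were seen. Alternatives to thresholds, filters, scaling, plates and single cells were computed, and those that leave out reference cells, and all for the kinds of selected cells, were chosen after seeing the data. Software was Python 3.11.15, numpy 2.4.6, pandas 2.3.3, scipy 1.17.1 and matplotlib 3.10.9, and scripts were tested on simulated data.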

Additional observations from a re-analysis of the deposited data

Results flagged for a closer look

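In 5 genes of the mural and mesenchyme lists the lines moved past 2-fold in opposite directions, and the differences between lines were not tested. On the log2 scale, selected over reference cells, Ppp1r12b, a myosin phosphatase subunit, was 5.69 in Prox1 cells and −1.71 in Nkx2.5 cells. Vcl, the focal adhesion protein vinculin, was 6.30 in Nkx2.5 cells and 2.79 in Nkx3.2 cells but −1.20 in Prox1 cells. In the Nkx2.5 line its reference cells were all at 0, so that value is taken against the floor of 3 counts.

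Between cells with both genes and cells with Rgs5 alone, Mylk, the myosin light chain kinase, was 2.33 in Nkx3.2 cells and −2.11 in Nkx2.5 cells. Hey2, a Notch target, was 1.83 and −1.31 in these lines. Col14a1, a fibril-associated collagen, was 2.15 and −4.30. Mylk had counts in 5 of 18 and 3 of 11 cells with both, so few cells carry these ratios.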

How the results depend on the processing

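The shares of selected cells in each line moved by less than their intervals under each alternative tried, and so did those of Acta2, except on the first Prox1 plate, where Acta2 was at 0 of 22 cells. The share of genes called was less stable, and it is given as percent of the genes compared, since their number changes with the setting. Against the reference cells, 0.903% were higher and 0.458% lower. Higher and lower shares were 4.66% and 2.86% of 15122 genes with no filter on low values, 0.113% and 0.141% of 3536 genes with a filter of 50 CPM, 3.07% and 1.91% at 1.5-fold, 0.371% and 0.099% at 3-fold, 2.45% and 0.809% on the first plates alone, 0.504% and 1.05% without the highest selected cell of each gene, and 9.04% and 0.0135% without the highest reference cell of each gene. Leaving out the highest cell lowers that side by construction. With reference cells at 0 counts of both genes, 1.49% were higher. Between cells with both genes and with Rgs5 alone, 0.664% were higher and 1.36% lower. These shares became 4.94% and 5.88% of 16752 genes with no filter, 0.227% and 0.101% of 3961 genes at 50 CPM, 3.03% and 4.44% at 1.5-fold, 0.103% and 0.275% at 3-fold, 1.83% and 2.73% on the first plates, 0.0619% and 7.08% without the highest cell with both, and 1.86% and 0.580% without the highest Rgs5 cell. Fewer genes compared or fewer cells go with several of these settings, and otherwise the cause was not tested.

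Ratios of named genes at least 2-fold in a single line, called over all lines or not, were followed. Over all settings, 1207 of 1327 stayed 2-fold against the reference cells and 518 of 560 between the kinds of cells. Many of these genes were named for large ratios and several settings keep most cells, so these shares say little. Calls over all lines were kept less often in some settings. On first plates 47.95% of higher and 43.24% of lower calls were kept against the reference cells, and 56.9% and 56.3% between the kinds. Without the highest cell with both, 8.62% and 85.71% were kept. Log2 ratios that turned against the reference cells on first plates were Fam162b 0.12 in the Nkx3.2 line and Rgs4 −0.38 in the Prox1 line. On second plates they were Kcnj8 0.28, Npnt 0.22 and Ofd1 2.52 in the Nkx3.2 line, and Isl1 0.27, Gap43 −0.041, Flrt3 2.23, Arhgap29 2.17, Fam162b 0.52 and Myrf 0.051 in the Prox1 line. With the 5 cells with Acta2 alone as the selected cells they were Kcnj8 0.65, Isl1 0.72, Syt6 −0.21, Pcna −0.73, Zfp367 −2.42 and Twistnb −0.55. Without the highest reference cell they were Arhgap29 1.81 and Ofd1 0.15 in the Nkx2.5 line, and Kcnj8 0.37 and Npnt 0.026 in the Nkx3.2 line. Leaving out the 1 reference cell with mesothelial markers gave the same Arhgap29 1.81 and Ofd1 0.15. Between the kinds, the turns were Igf1 −3.94, Pcdh7 −3.98, Egr1 −0.052 and Etv1 0.16 on the second Nkx3.2 plate, Pcdh7 −1.43 in the Nkx2.5 line and Ehd4 −0.13 in the Nkx3.2 line without the highest cell with both, and Ehd4 −0.13 without the cell with most Acta2 of each line.

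Second plates gave no count over all lines, since a group there held under 3 cells. No paired analysis was possible because no test was made and the lines share no replicate. With 8 to 11 reference cells per line, 1 cell can set a ratio, and these cells are not replicates.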
